A study of Homo sapiens with 35 samples.

Results

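The genes described here are 10 regulators of the passage from G1 into S phase: the D-type cyclins CCND1, CCND2 and CCND3, the E-type cyclins CCNE1 and CCNE2, the kinases CDK2, CDK4 and CDK6, the kinase inhibitor CDKN1B (p27) and the transcription factor E2F1. They form a list of named genes, 10 of the 18404 genes tested. Each gene was read from the array rows that carry its symbol alone, taking the row with the highest mean over all arrays, and each of the 10 had exactly 1 such row. No threshold on measured values was used to choose the genes, but earlier results of these data were known when they were chosen. All 10 are described in every group.

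Transcript levels were measured on 35 Affymetrix HuGene ST arrays of HCT116, an established human colorectal carcinoma cell line, in 3 derived lines. The shControl line carried a non-target hairpin RNA, the shCDK8 line a hairpin against CDK8 and the shCDK19 line a hairpin against CDK19. Both targets are cyclin C partners that take turns in the kinase module of Mediator, a large transcriptional coactivator. All 3 lines were measured in normal growth (3 arrays each), after 12 h of 5-fluorouracil (5FU; 2 arrays each), after 24 h in low glucose medium (3 arrays each) and after 24 h in 1% oxygen, called hypoxia here (2 arrays each). The shControl line was also measured after 12 h in the vehicle DMSO (2 arrays) and after 24 h in high glucose medium (3 arrays), which gives 14 groups in 4 experiments.

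Several features limit what the groups can show. Each target is represented by 1 knockdown line, no knockdown array in DMSO or high glucose was analysed here, and no normal-oxygen array of the hypoxia experiment was analysed here. Hypoxia was therefore compared with normal growth, and experiment and oxygen cannot be told apart in that comparison. The labels number the replicates without naming separate cultures, so p-values speak only to the scatter among these arrays, and that scatter may be technical. Both knockdown lines were compared with the same shControl arrays in each experiment.

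Cells enter S phase when D-type cyclins bound to CDK4 or CDK6 begin to phosphorylate the retinoblastoma protein RB, which releases E2F transcription factors. E2F1 in turn drives genes of DNA replication together with CCNE1 and CCNE2, and cyclin E bound to CDK2 completes the phosphorylation of RB. CDKN1B binds cyclin E and CDK2 and holds the complex inactive until the protein is degraded. Transcripts of the E-type cyclins and of E2F1 normally peak around the G1/S boundary, so in a cell population fewer cells in that phase and less RNA per cell cannot be told apart.

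Values are the deposited log2 signals, and differences are given on the log2 scale with their standard error (SE). The test was limma's moderated test with Benjamini-Hochberg adjustment over all genes, and a gene rose or fell where the adjusted p was under 0.05. The 75th percentile of an array's log2 signals lay between 8.957 and 9.252, and arrays of 1 group correlated at 0.976 to 0.998. The lowest of these correlations belonged to the 2 shControl hypoxia arrays, which stood further apart than any other pair of the same group. The main results that rest on them are given with each of them left out. The hairpin targets were lower in their lines: the row of CDK8, shared with ADRA1B, was 4.07- to 6.7-fold lower in shCDK8, and CDK19 was 2.11- to 2.95-fold lower in shCDK19. The CDK19 difference in hypoxia, 2.14-fold, did not pass the test (adjusted p = 0.144). All 6 epithelial markers, EPCAM and keratins among them, lay above the median of all genes. Of the markers of other cells, 1 of 6 for fibroblasts, 1 of 5 measured for leukocytes and 0 of 6 for endothelium lay above it, and only CDX2 of 6 intestinal markers did.

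**Figure D1:**
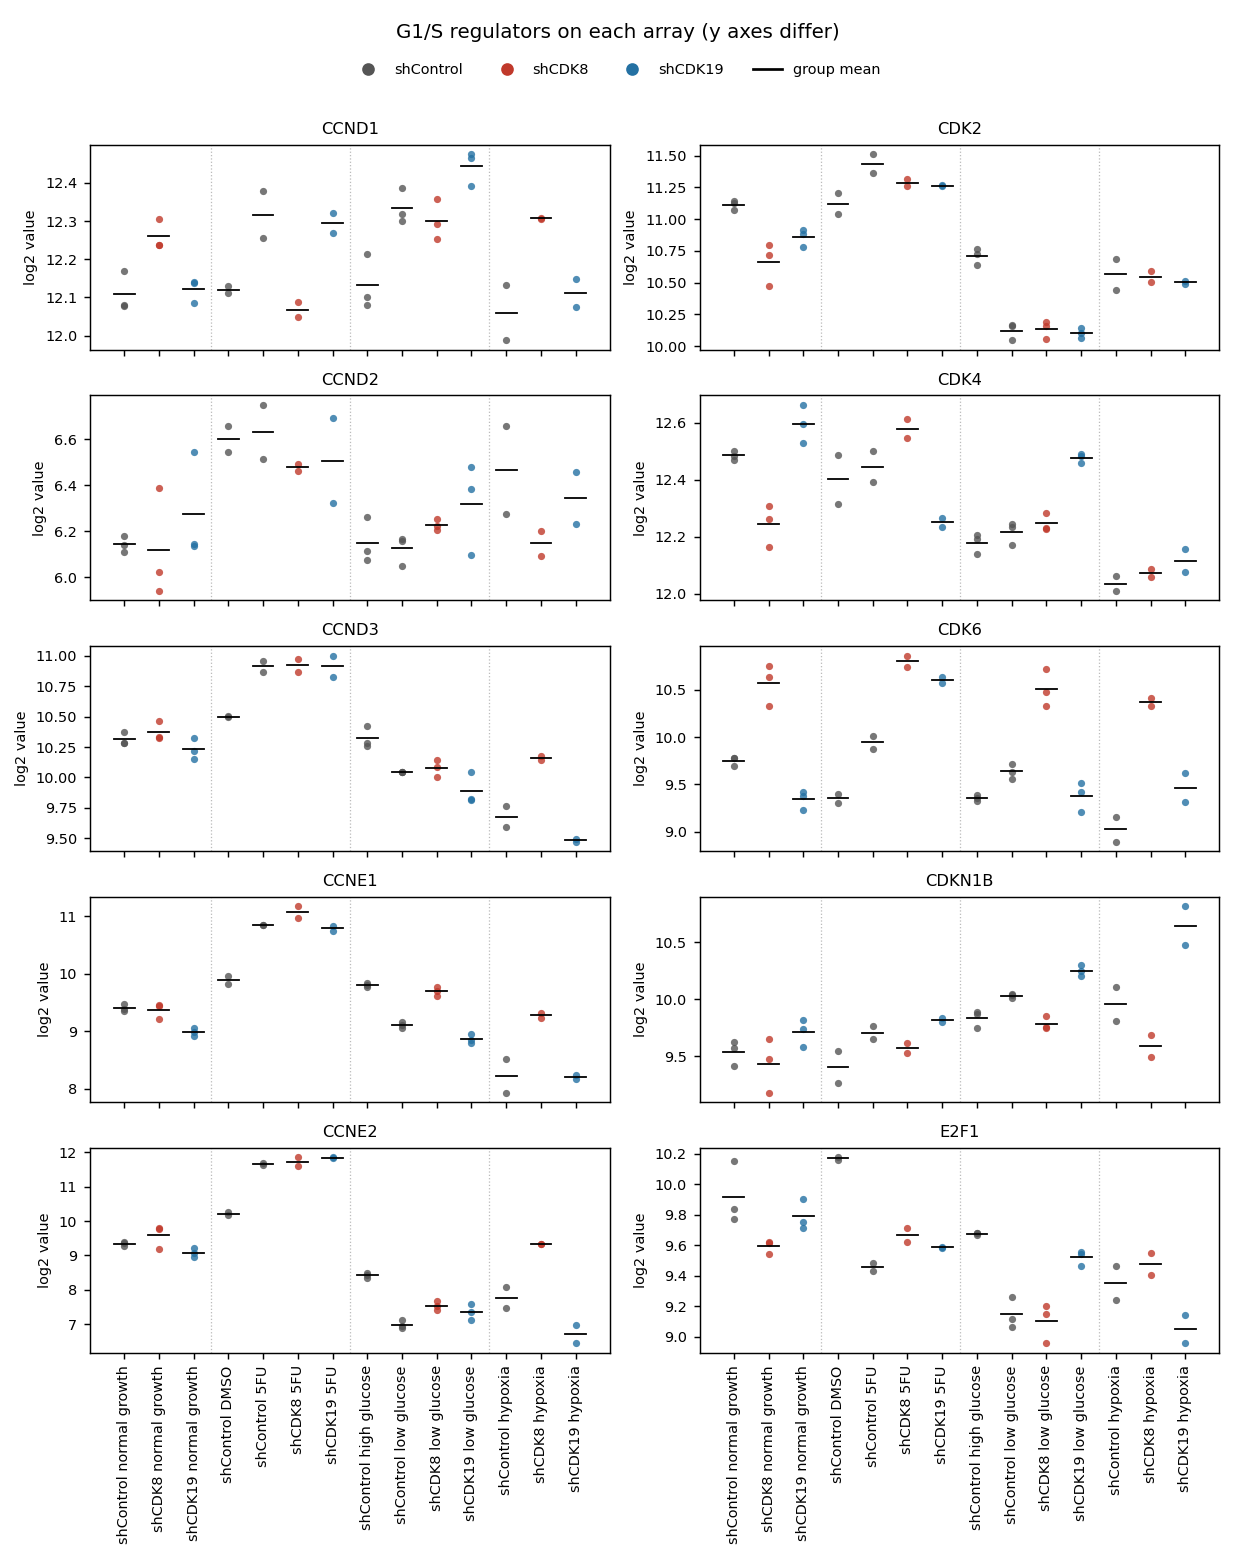
Log2 value of each of the 10 genes (1 panel each, y axes differ) on every array of the 14 groups (x axis), coloured by line, with a line at each group mean and dotted lines between the 4 experiments. CCNE2 spans 6.45 to 11.86 over the arrays and CCND1 only 11.99 to 12.48, and the red shCDK8 points of CDK6 lie above all grey shControl points.

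The 10 genes differed widely in how far they moved over the 14 groups. CCNE2 had the widest range of the list: its group means ran from 6.71 in shCDK19 hypoxia to 11.84 in shCDK19 5FU, a log2 span of 5.13 that only 7 of the 18404 genes exceeded. CCNE1 spanned 7.28-fold, from 8.21 in shCDK19 hypoxia to 11.07 in shCDK8 5FU. CDK6 spanned 3.43-fold, CCND3 2.71-fold, CDK2 2.53-fold, CDKN1B 2.36-fold and E2F1 2.17-fold. CDK4, CCND2 and CCND1 spanned 1.47-, 1.43- and 1.31-fold, less than most genes on the array: 28.7%, 24% and 12.3% of genes had a smaller range than each of them.

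Under 5FU, a thymidylate synthase inhibitor that starves cells of thymidine nucleotides, cyclin E transcripts rose and E2F1 fell. Against DMSO in shControl, 4 of the 10 genes rose (CCND3, CCNE1, CCNE2 and CDK6), beside 7.17% of all genes tested, and 1 fell (E2F1), beside 4.29%. Without 5FU replicate 1 the count of 5 became 2 (CCNE2 and E2F1), and without replicate 2 it became 3. Of all genes called there, 62.6% were higher, 73.5% once array medians had been subtracted and 57% after quantile normalization. The 3 cyclins that rose there (CCND3, CCNE1 and CCNE2) fell in low glucose: against high glucose in shControl, 5 genes fell (CCND3, CCNE1, CCNE2, CDK2 and E2F1), beside 17.3% of all genes, and 2 rose (CCND1 and CDKN1B), beside 13.9%. Hypoxia against normal growth gave the most calls in shControl, with 7 genes lower (CCND3, CCNE1, CCNE2, CDK2, CDK4, CDK6 and E2F1), beside 26.7% of all genes, and CDKN1B higher, beside 21.1%. Of all genes called in that comparison, 44.1% were higher, 30.4% with array medians subtracted and 44.6% after quantile normalization.

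**Figure D2:**
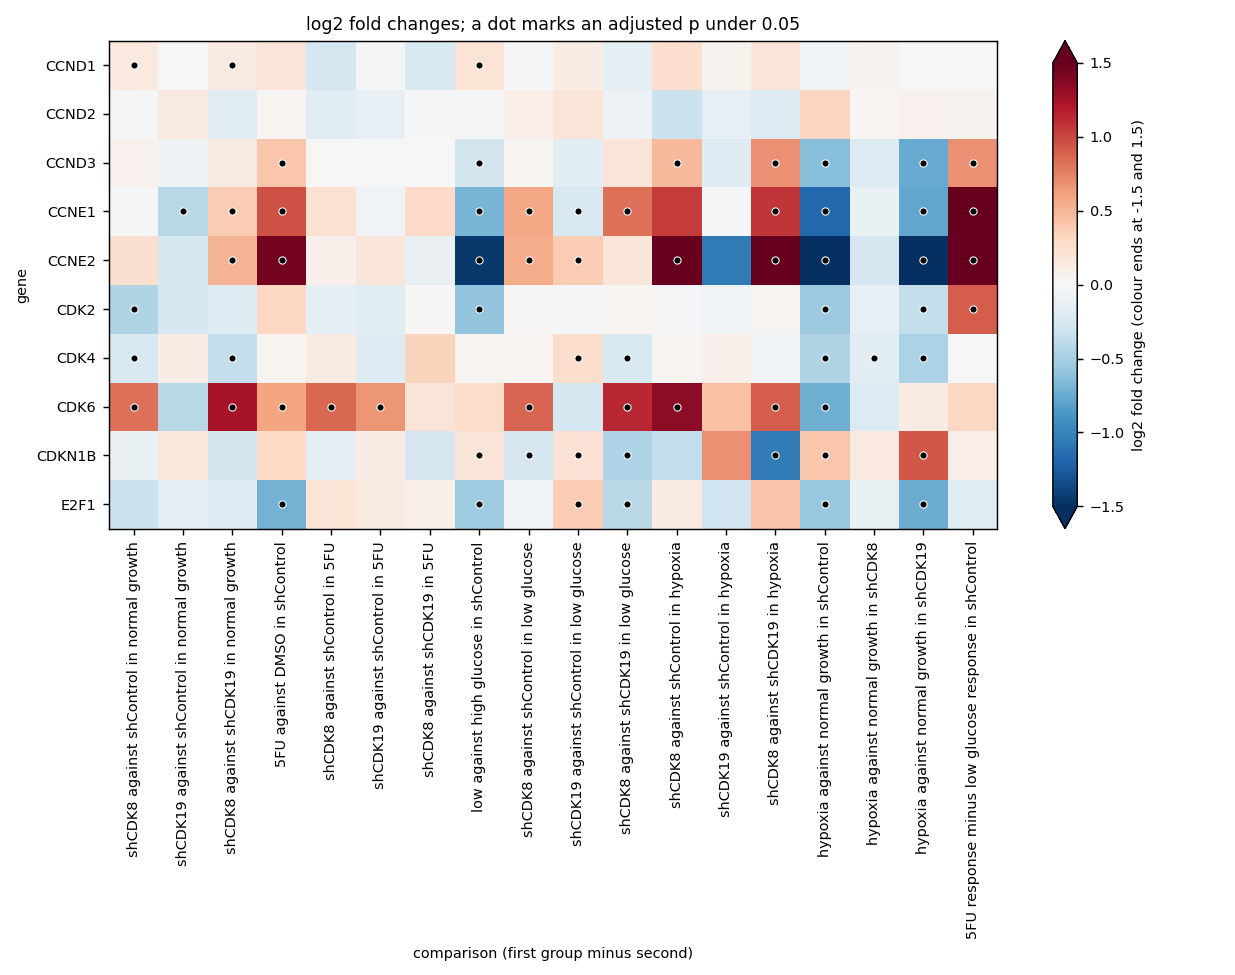
Log2 fold change (colour, red higher and blue lower in the first group named, colour scale ending at -1.5 and 1.5) of the 10 genes (rows) in the 18 comparisons (columns), with a dot where the adjusted p was under 0.05. CCNE1 carries 11 dots, CCNE2 and CDK6 10 each, and CCND2 none.

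Among the D-type cyclins, which activate CDK4 and CDK6, CCND3 moved most. In shControl its values were 10.49 and 10.51 in DMSO and 10.96 and 10.87 in 5FU, so the 2 groups did not overlap. The rise was 0.41 ± 0.08 (SE, adjusted p = 0.0289), a 1.33-fold difference. It lost the threshold when any 1 of the 4 arrays was left out, in the unmoderated linear model and with the replicate number as a block. The 5FU arrays of the knockdown lines lay in the same band, from 10.83 upward, above both DMSO arrays. In glucose, CCND3 read 10.42, 10.28 and 10.26 in high and 10.04, 10.05 and 10.04 in low glucose, a fall of 0.28 ± 0.07 (adjusted p = 0.0109). In hypoxia it read 9.76 and 9.59 in shControl, 10.18 and 10.15 in shCDK8, and 9.49 and 9.47 in shCDK19. The lowest values of the gene over all groups were thus those of shCDK19 in hypoxia, and shCDK8 stood above both other lines. Against normal growth CCND3 fell by 0.64 ± 0.07 in shControl (adjusted p = 2.76e-07; by 0.72 and 0.55 without shControl hypoxia replicate 1 or 2) and by 0.75 ± 0.07 in shCDK19 (adjusted p = 1.5e-08). In shCDK8 the difference was -0.21 ± 0.07 (adjusted p = 0.0818).

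CCND1, the D-type cyclin that growth factor signalling induces in many cells, was among the steadiest transcripts. Its 35 values lay between 11.99 and 12.48, and the 3 control conditions of shControl differed by only 0.02 in their means. In high glucose it read 12.21, 12.10 and 12.08, and in low glucose 12.39, 12.30 and 12.32. These groups did not overlap, and the rise of 0.20 ± 0.05 passed the test (adjusted p = 0.009), at 1.15-fold. CCND1 was also higher in shCDK8 than in shControl in normal growth, by 0.15 ± 0.04 (adjusted p = 0.0344), with values of 12.24, 12.31 and 12.24 against 12.08, 12.17 and 12.08. That call was lost without shControl replicate 1 or 3 or shCDK8 replicate 2 or 3, and with array medians subtracted.

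CCND2, the third D-type cyclin, changed in none of the 18 comparisons by limma's test with all arrays. Without shControl hypoxia replicate 2 it passed for hypoxia against normal growth in shControl (0.51, adjusted p = 0.0123) and for shCDK8 against shControl in hypoxia (-0.51, adjusted p = 0.0415). Without shCDK19 low glucose replicate 2 it passed for shCDK19 against shControl there (0.31, adjusted p = 0.0101) and for shCDK8 against shCDK19 (-0.21, adjusted p = 0.0419). Its values ran from 5.94 to 6.75. The highest group means were those of shControl 5FU (6.51 and 6.75) and DMSO (6.66 and 6.54), and every neighbouring pair in the order of its 14 groups overlapped. The 5FU difference was 0.03 ± 0.14 with a 95% interval from -0.32 to 0.38. The low glucose difference was -0.02 ± 0.09, with an interval from -0.22 to 0.18.

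The E-type cyclins activate CDK2 at the G1/S boundary, and CCNE2 gave the widest changes of the list. In shControl, CCNE2 read 10.25 and 10.18 in DMSO and 11.62 and 11.68 in 5FU, so both treated arrays lay far above both vehicle arrays. The rise was 1.43 ± 0.09 (adjusted p = 0.00257), or 2.7-fold, and 99.7% of genes changed by less. It read 8.43, 8.36 and 8.49 in high glucose and 7.11, 6.89 and 6.95 in low glucose. All low glucose arrays lay below all high glucose arrays, and the fall of 1.44 ± 0.11 (adjusted p = 7.57e-06), or 2.72-fold, was again larger than that of 99.8% of genes. The responses to 5FU and to low glucose differed by 2.88 ± 0.24 (adjusted p = 6.55e-09). The 2 experiments had different baselines, media and times, so the size of each response is relative to its own control. Both responses passed the test when any 1 array was left out.

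CCNE2 also differed between the control groups themselves. Mean shControl values were 10.22 in DMSO, 9.34 in normal growth and 8.43 in high glucose, a spread of 1.79. For the other 9 genes this spread was between 0.02 and 0.49. In the order of the 14 groups, all 3 5FU groups came first, with means from 11.65 to 11.84 and overlapping neighbours, and DMSO followed without overlap. Normal growth of shCDK8 and shControl and hypoxia of shCDK8 came next, at 9.34 to 9.58, and these neighbours overlapped. Then came shCDK19 in normal growth at 9.07 and shControl in high glucose at 8.43, each without overlap with its neighbours. The lower end was made of shControl hypoxia (7.77) and the shCDK8 and shCDK19 low glucose groups (7.54 and 7.36), whose neighbours overlapped. Last, and below those without overlap, were shControl low glucose (6.98) and shCDK19 hypoxia (6.71), which overlapped each other.

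**Figure D3:**
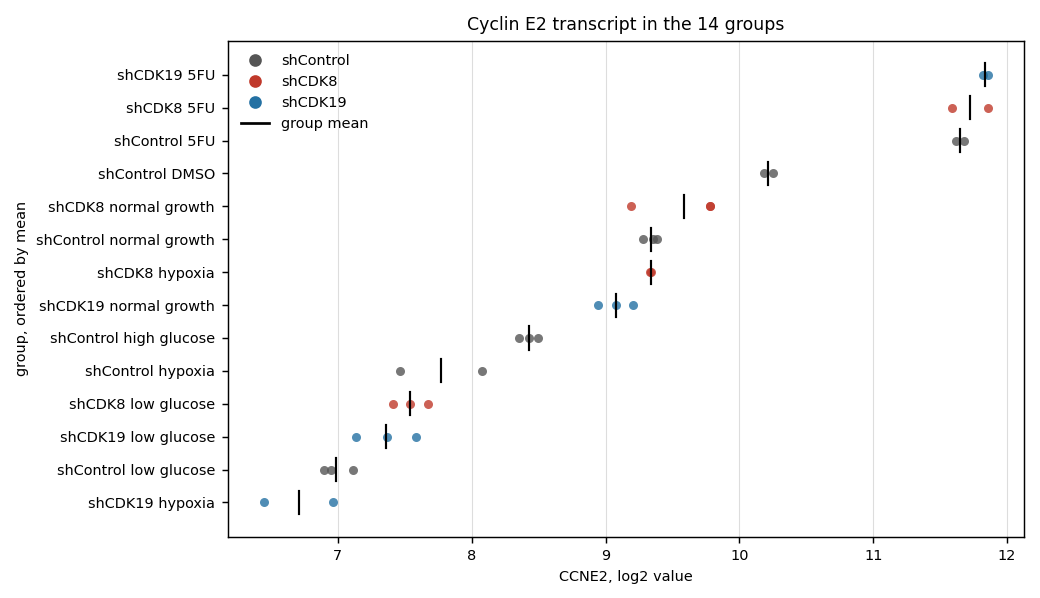
CCNE2 log2 value on each array (points, coloured by line) in the 14 groups ordered by their mean (vertical bars). The 5FU arrays lie between 11.59 and 11.86, and the arrays of low glucose and of shControl and shCDK19 hypoxia lie between 6.45 and 8.08.

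CCNE1 followed the direction of CCNE2 in shControl with smaller changes. It read 9.83 and 9.96 in DMSO and 10.85 and 10.84 in 5FU, a rise of 0.95 ± 0.08 (adjusted p = 0.00496), or 1.93-fold. Without 5FU replicate 1 the adjusted p became 0.0505. In high glucose it read 9.84, 9.76 and 9.80 and in low glucose 9.06, 9.10 and 9.15. Those groups stood apart, and the fall of 0.69 ± 0.05 passed the test (adjusted p = 9.42e-06), at 1.62-fold. The 2 responses differed by 1.64 ± 0.15 (adjusted p = 2.02e-08). In all, 4 genes differed in this way with the 5FU response the higher (CCND3 by 0.69, CCNE1, CCNE2 and CDK2 by 0.90), beside 12.8% of all genes, and 0 with it the lower, beside 7.91%.

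In hypoxia the shCDK8 arrays read above those of both other lines at both E-type cyclins. CCNE2 read 7.46 and 8.08 in shControl hypoxia, 9.34 and 9.33 in shCDK8 and 6.97 and 6.45 in shCDK19, so the 3 lines did not overlap. Against normal growth it fell by 1.57 ± 0.17 in shControl (2.97-fold, adjusted p = 1.16e-07) and by 2.37 ± 0.17 in shCDK19 (5.16-fold, adjusted p = 9.68e-11). The CCNE2 means of shControl in normal growth, DMSO and high glucose spanned 1.79, more than the shControl fall. The shCDK8 difference was -0.25 ± 0.17, with a 95% interval from -0.60 to 0.11 and an adjusted p of 0.493. Leaving out shControl hypoxia replicate 1 or 2 gave falls of 1.26 and 1.88 in shControl, both past the threshold. CCNE1 read 7.93 and 8.52 in shControl, 9.32 and 9.23 in shCDK8 and 8.24 and 8.18 in shCDK19. Here shControl and shCDK19 overlapped and shCDK8 lay above both. Its fall against normal growth was 1.18 ± 0.11 in shControl (adjusted p = 5.47e-09), between 0.89 and 1.47 with either hypoxia array left out, and 0.78 ± 0.11 in shCDK19 (adjusted p = 2.25e-06). In shCDK8 the difference was -0.10 ± 0.11 (adjusted p = 0.737). The SEs against normal growth come from the fit of all 35 arrays, which gives each gene 1 spread for all groups. The standard deviation in shControl hypoxia was 0.41 for CCNE1 and 0.44 for CCNE2, against medians of 0.06 and 0.12 over the groups. Those SEs and p-values thus rest largely on the scatter of less variable groups.

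Within the hypoxia experiment, CCNE2 was higher in shCDK8 than in shControl by 1.57 ± 0.27 (2.96-fold, adjusted p = 0.0416). With shControl replicate 1 left out it was 1.26 (adjusted p = 0.0576), and with replicate 2 left out 1.88 (adjusted p = 0.0139). The call was also lost without either shCDK8 array. CCNE2 was higher in shCDK8 than in shCDK19 by 2.63 ± 0.27 (6.19-fold, adjusted p = 0.0114). That call was lost without either shCDK8 array and without either shCDK19 array. Both of these CCNE2 calls were also lost in the unmoderated linear model, and that of shCDK8 against shControl with the replicate number as a block. The shCDK19 difference from shControl, -1.06 ± 0.27, did not pass the test with the 6 hypoxia arrays (adjusted p = 0.236), nor without shControl replicate 1 (-1.37) or 2 (-0.75). With all 35 arrays in 1 fit its adjusted p was 0.000333. The corresponding CCNE1 difference of shCDK8 from shControl was 1.05 ± 0.20 and just missed the threshold (adjusted p = 0.0533). It passed with either shControl array left out, at 0.76 and 1.34.

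In low glucose both E-type cyclins were higher in shCDK8 than in shControl. CCNE1 read 9.70, 9.60 and 9.77 in shCDK8 against 9.06, 9.10 and 9.15 in shControl, a rise of 0.59 ± 0.05 (adjusted p = 4e-05). CCNE2 read 7.54, 7.68 and 7.41 against 7.11, 6.89 and 6.95, a rise of 0.56 ± 0.11 (adjusted p = 0.00461). Neither pair of groups overlapped. In shCDK19 the E-type cyclins went opposite ways: CCNE1 fell by 0.24 ± 0.05 (8.85, 8.95 and 8.80; adjusted p = 0.012) and CCNE2 rose by 0.38 ± 0.11 (7.37, 7.58 and 7.14; adjusted p = 0.0364). The CCNE1 call was lost when the arrays of all experiments entered 1 fit (adjusted p = 0.0929). The CCNE2 call was also lost in that fit, in the unmoderated linear model and with either rescaling of the arrays. It was lost too without any 1 of 4 arrays (shControl replicates 2 and 3, shCDK19 replicates 1 and 2). In normal growth CCNE1 was lower in shCDK19 than in shControl (9.05, 8.99 and 8.92 against 9.47, 9.39 and 9.36), by 0.42 ± 0.07 (adjusted p = 0.0145). That call was lost without shControl replicate 1 or 2 or shCDK19 replicate 2 or 3, and with the replicate number as a block. CCNE2 in shCDK8 read 9.19, 9.78 and 9.78 in normal growth, with replicate 1 apart, and differed from shControl by 0.25 ± 0.16 (adjusted p = 0.343). Without that replicate the difference was 0.44 (adjusted p = 0.00465).

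CDK6, a partner of the D-type cyclins, was higher in shCDK8 than in shControl in all 4 conditions. All 10 shCDK8 arrays read between 10.33 and 10.86 and all 15 shControl arrays between 8.89 and 10.01, so the lines did not overlap. In normal growth shCDK8 read 10.33, 10.75 and 10.64 against 9.78, 9.78 and 9.69 in shControl, a rise of 0.82 ± 0.11 (1.77-fold, adjusted p = 0.00111). In low glucose the values were 10.47, 10.73 and 10.33 against 9.56, 9.64 and 9.71, a rise of 0.87 ± 0.10 (adjusted p = 0.000165). In 5FU they were 10.86 and 10.74 against 10.01 and 9.87, a rise of 0.86 ± 0.08 (adjusted p = 0.00714). In hypoxia they were 10.41 and 10.33 against 8.89 and 9.16, a rise of 1.35 ± 0.15 (2.54-fold, adjusted p = 0.017), which was 1.21 and 1.48 with shControl replicate 1 or 2 left out. The calls in normal growth and low glucose held in every alternative tried. That in 5FU was lost without shControl replicate 2 or shCDK8 replicate 1, and that in hypoxia without either shCDK8 array and in the unmoderated linear model.

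The shCDK19 line differed from shCDK8 in how CDK6 varied. Its values lay between 9.21 and 9.62 in normal growth, low glucose and hypoxia, and at 10.64 and 10.58 in 5FU. The difference from shControl was -0.41 ± 0.11 in normal growth (9.38, 9.42 and 9.23; adjusted p = 0.0633) and -0.25 ± 0.10 in low glucose (adjusted p = 0.111). In 5FU CDK6 was 0.66 ± 0.08 higher in shCDK19 (adjusted p = 0.0344). That call was lost without any 1 of the 4 arrays, in the unmoderated linear model and with the replicate number as a block. The knockdown effect in 5FU differed from that in normal growth by 1.07 ± 0.17 (adjusted p = 0.000217). In shControl itself CDK6 rose under 5FU, from 9.30 and 9.40 in DMSO, by 0.59 ± 0.08 (adjusted p = 0.0115). That rise lost the threshold without either 5FU array. CDK6 fell in shControl hypoxia against normal growth, by 0.73 ± 0.12 (adjusted p = 2.74e-05), or by 0.60 and 0.86 with hypoxia replicate 1 or 2 left out.

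**Figure D4:**
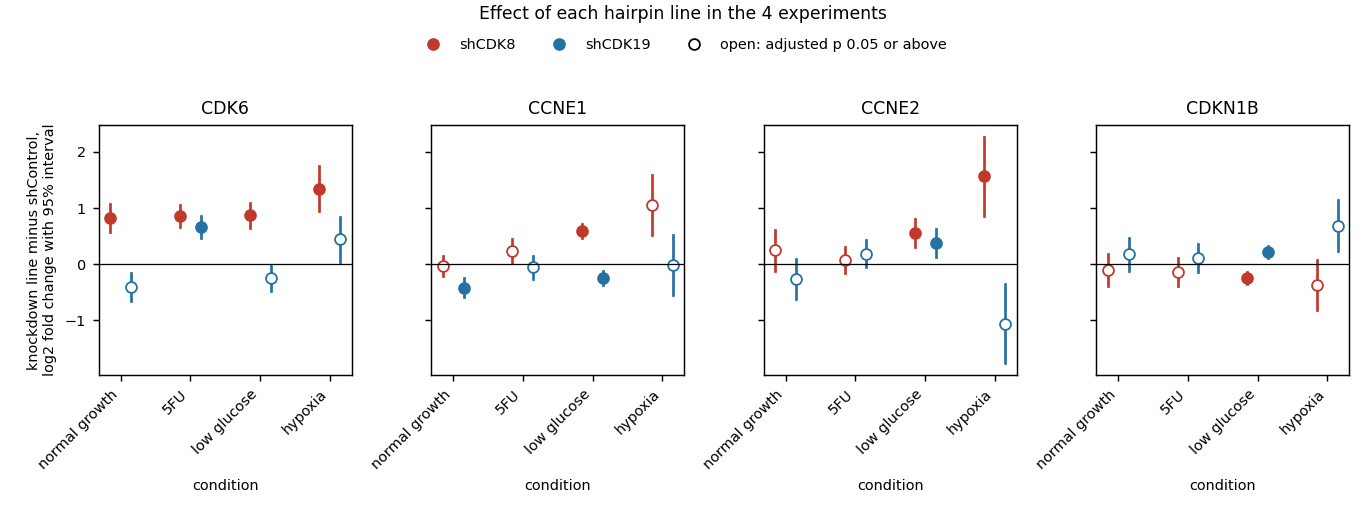
Log2 fold change of each knockdown line from shControl (y axis) in the 4 conditions (x axis) for CDK6, CCNE1, CCNE2 and CDKN1B, with 95% intervals and open points where the adjusted p was 0.05 or above. The shCDK8 points of CDK6 lie between 0.82 and 1.35, and the intervals are widest in hypoxia.

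CDK4, the other kinase of the D-type cyclins, moved little. Its 35 values lay between 12.01 and 12.66. The 7 calls included lower values in shCDK8 than in shControl in normal growth (12.16, 12.31 and 12.26 against 12.48, 12.50 and 12.47), a fall of 0.24 ± 0.05 (adjusted p = 0.0113). In low glucose it was higher in shCDK19 than in shControl by 0.26 ± 0.04 (12.48, 12.49 and 12.46 against 12.25, 12.23 and 12.17; adjusted p = 0.000736). Hypoxia arrays of all 3 lines read between 12.01 and 12.16, below each line's normal growth arrays. CDK4 fell by 0.45 ± 0.05 in shControl (adjusted p = 2.42e-07) and fell by 0.48 and 0.42 there without hypoxia replicate 1 or 2. It also fell by 0.48 ± 0.05 in shCDK19 (adjusted p = 6.67e-08) and 0.17 ± 0.05 in shCDK8 (adjusted p = 0.0362). The shCDK8 call was lost without shCDK8 normal growth replicate 2 or 3 or either shCDK8 hypoxia array, and with array medians subtracted.

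CDK2, the partner of cyclin E, was lowest in low glucose in all 3 lines. The low glucose arrays read between 10.04 and 10.19, and shControl in high glucose read 10.77, 10.73 and 10.64. The fall was 0.59 ± 0.05 in shControl (1.5-fold, adjusted p = 2.21e-05). The lines overlapped in low glucose, where shCDK8 differed from shControl by 0.01 ± 0.05 with a 95% interval from -0.10 to 0.13. In normal growth CDK2 was lower in shCDK8 (10.47, 10.80 and 10.72) than in shControl (11.12, 11.07 and 11.15), by 0.45 ± 0.08 (adjusted p = 0.00631). The shCDK19 values (10.91, 10.88 and 10.78) lay below those of shControl and overlapped those of shCDK8, and the difference of -0.26 ± 0.08 from shControl did not pass (adjusted p = 0.13). Under 5FU CDK2 was 0.31 ± 0.08 higher than in DMSO (adjusted p = 0.0636). In hypoxia it fell by 0.55 ± 0.08 in shControl (adjusted p = 7.46e-06; by 0.43 and 0.67 without hypoxia replicate 1 or 2) and by 0.36 ± 0.08 in shCDK19 (adjusted p = 0.00105).

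CDKN1B, the inhibitor of cyclin E and CDK2, was highest in shCDK19 hypoxia. It read 10.48 and 10.81 there, 9.81 and 10.10 in shControl and 9.69 and 9.49 in shCDK8, with no overlap between the lines. Against normal growth it rose by 0.93 ± 0.12 in shCDK19 (1.91-fold, adjusted p = 6.48e-07) and by 0.42 ± 0.12 in shControl (adjusted p = 0.00558). The shControl call was lost with array medians subtracted and with only the normal growth and hypoxia arrays in the fit. CDKN1B means of shControl in normal growth, DMSO and high glucose differed by up to 0.43, about as much as that rise. The shControl rise was 0.27 (adjusted p = 0.0926) without hypoxia replicate 2 and 0.57 (adjusted p = 0.004) without replicate 1. The shCDK8 difference was 0.15 ± 0.12 (adjusted p = 0.554). Within hypoxia CDKN1B was 1.06 ± 0.17 lower in shCDK8 than in shCDK19 (adjusted p = 0.0271). That call was lost without either shCDK8 array and without either shCDK19 array. It was also lost in the unmoderated linear model and with the replicate number as a block. The CDKN1B difference between shCDK19 and shControl was 0.69 ± 0.17 (adjusted p = 0.233), or 0.54 and 0.83 without shControl replicate 1 or 2. In low glucose it rose in shControl by 0.20 ± 0.05, from 9.87, 9.89 and 9.75 to 10.05, 10.01 and 10.03 (adjusted p = 0.00975). There shCDK8 read lower (9.75, 9.85 and 9.75), by 0.25 ± 0.05 (adjusted p = 0.00383), and shCDK19 higher (10.24, 10.29 and 10.20), by 0.22 ± 0.05 (adjusted p = 0.00907). Each of these 3 glucose calls was lost when all 35 arrays entered 1 fit.

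E2F1, the transcription factor released from RB, fell under both stresses in shControl. It read 10.16 and 10.18 in DMSO and 9.48 and 9.43 in 5FU, a fall of 0.71 ± 0.05 (1.64-fold, adjusted p = 0.00317). It read 9.68, 9.66 and 9.68 in high glucose and 9.12, 9.26 and 9.06 in low glucose, a fall of 0.53 ± 0.07 (adjusted p = 2e-04). The treated arrays lay below the control arrays in both experiments. E2F1 and the E-type cyclins thus moved in opposite directions under 5FU and in the same direction in low glucose. In low glucose E2F1 was 0.38 ± 0.07 higher in shCDK19 than in shControl (9.56, 9.54 and 9.46; adjusted p = 0.00351), and shCDK8 overlapped shControl. Hypoxia against normal growth gave falls of 0.57 ± 0.09 in shControl (adjusted p = 3.01e-05), or 0.68 and 0.45 without hypoxia replicate 1 or 2, and of 0.74 ± 0.09 in shCDK19 (adjusted p = 6.85e-07). In normal growth the shCDK8 difference of -0.33 ± 0.10 missed the threshold narrowly (adjusted p = 0.0505), although its values (9.62, 9.62 and 9.54) lay below those of shControl (10.15, 9.84 and 9.77).

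The promoters of E2F1 and CCNE1 are shown because E2F1 is a transcription factor whose textbook targets include its own gene and CCNE1, and both moved in these groups. RefSeq promoter windows (GRCh38.p14) were given for 6 of the 10 genes: CCND3, CCNE1, CDK4, CDK6, CDKN1B and E2F1. The 250 bases before each annotated start were searched on both strands for TTTCCCGC, TTTCGCGC, TTTGCCGC and TTTGGCGC, all spellings of the E2F consensus. E2F1 held 2 matches, which ended 25 and 12 bases before the start, and the windows of the other genes held 0. Of 35116 windows of the same length, 2.79% held at least 1 match. A match describes letters in the window and is not evidence of binding. In the sequences below, 5′ to 3′ on the strand of the gene, capitals mark the matches.
E2F1, chr20:33686386-33686635, minus strand: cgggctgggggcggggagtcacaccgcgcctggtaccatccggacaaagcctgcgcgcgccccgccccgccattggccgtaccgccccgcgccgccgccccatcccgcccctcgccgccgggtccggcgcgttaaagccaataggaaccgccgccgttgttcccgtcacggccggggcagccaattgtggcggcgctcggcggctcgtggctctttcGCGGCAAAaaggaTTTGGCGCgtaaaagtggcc
CCNE1, chr19:29811741-29811990, plus strand: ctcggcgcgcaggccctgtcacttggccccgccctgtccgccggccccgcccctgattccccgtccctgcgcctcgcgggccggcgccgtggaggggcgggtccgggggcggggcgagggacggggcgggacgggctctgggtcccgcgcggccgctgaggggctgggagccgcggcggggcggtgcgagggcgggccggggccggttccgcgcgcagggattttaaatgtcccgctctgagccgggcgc

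Counts for the knockdown lines give the frame for the values above. In normal growth, shCDK8 against shControl gave 2 higher genes (CCND1 and CDK6), beside 11.4% of all genes, and 2 lower (CDK2 and CDK4), beside 13.5%. For shCDK19 against shControl there were 0 higher, beside 3.67%, and 1 lower (CCNE1), beside 3.40%. In shCDK8 against shCDK19, 4 genes were higher (CCND1, CCNE1, CCNE2 and CDK6), beside 12.9%, and CDK4 was lower, beside 13.2%. The CCNE2 difference there, 0.51 ± 0.16 (adjusted p = 0.047), came from groups that overlapped. The count of 5 became 3 without any 1 of shCDK8 replicates 2 and 3 and shCDK19 replicates 1, 2 and 3, and the shCDK19 count of 1 became 0 without shControl replicate 1 or 2 or shCDK19 replicate 2 or 3.

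In 5FU the test within that experiment called a single gene of the list between a knockdown line and shControl. CDK6 alone was higher in shCDK8 than in shControl, beside 1.59% of all genes, and 0 genes were lower, beside 1.91%. CDK6 alone was also higher in shCDK19 than in shControl, beside 0.576%, with 0 lower, beside 0.261%. For shCDK8 against shCDK19 limma called 0 of the 10 genes, beside 2.22% of all genes in the direction of shCDK8 and 2.92% in that of shCDK19. Before adjustment 4 of them had a p under 0.05, and the unmoderated linear model called 0. The differences of the E-type cyclins between lines were at most 0.29, for CCNE1 between shCDK8 and shCDK19. The CDK6 call in shCDK8 was lost without shControl replicate 2 or shCDK8 replicate 1, and that in shCDK19 without any 1 of its 4 arrays.

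In low glucose 3 genes were higher in shCDK8 than in shControl (CCNE1, CCNE2 and CDK6), beside 12.1% of all genes, and CDKN1B was lower, beside 10.2%. In shCDK19 4 were higher (CCNE2, CDK4, CDKN1B and E2F1), beside 9.11%, and CCNE1 was lower, beside 10.8%. Between the knockdown lines, CCNE1 and CDK6 were higher in shCDK8, by 0.83 ± 0.05 and 1.13 ± 0.10, beside 14.7% of all genes. CDK4, CDKN1B and E2F1 were lower, with log2 differences of -0.23, -0.47 and -0.42, beside 11.2%.

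In hypoxia 3 genes were higher in shCDK8 than in shControl (CCND3, CCNE2 and CDK6), beside 4.81% of all genes, and 0 were lower, beside 2.49%. The CCND3 difference, 0.49 ± 0.09, lay on the threshold (adjusted p = 0.05 after rounding). The count was 6 without shControl replicate 2 and 0 without either shCDK8 array. Between shCDK19 and shControl limma called 0 of 10, beside 0.196% of all genes above shControl and 0.0326% below it. Before adjustment 3 had a p under 0.05, the unmoderated linear model called 0 and the fit of all 35 arrays called 4, and leaving out shControl replicate 2 gave 1 (CDKN1B). In shCDK8 against shCDK19, 4 genes were higher (CCND3, CCNE1, CCNE2 and CDK6), beside 7.26%, and CDKN1B was lower, beside 5.09%. Those 5 calls were each lost when any 1 of the 4 arrays was left out. Against normal growth, shCDK8 hypoxia gave 0 higher genes, beside 3.52%, and CDK4 lower, beside 5.57%, which became 0 without shCDK8 normal growth replicate 2 or 3 or either shCDK8 hypoxia array. In shCDK19, CDKN1B was higher, beside 11.1%, and 6 genes were lower (CCND3, CCNE1, CCNE2, CDK2, CDK4 and E2F1), beside 20.2%.

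Whether a knockdown effect differed between a stress and normal growth was tested as a difference of effects over all 35 arrays, and experiment and stress cannot be told apart in it. That fit gives each gene 1 spread for all groups, the more variable shControl hypoxia arrays included. For shCDK8, 3 of the 10 genes differed in 5FU, beside 11.9% of all genes in either direction, 3 in low glucose, beside 12.8%, and 7 in hypoxia, beside 11.5%. The hypoxia effect was the more positive at all 7, with CCNE2 1.32 ± 0.24 (adjusted p = 0.000903) and CCNE1 1.08 ± 0.15 (adjusted p = 5.16e-05) furthest from normal growth. Of all genes called in that comparison 78.7% were also more positive in hypoxia, 87.8% with array medians subtracted and 68.8% after quantile normalization. The count of 7 became 4 without shCDK8 hypoxia replicate 1. For shCDK19, 2 genes differed in 5FU, beside 4% of all genes, 1 in low glucose, beside 1.79%, and 1 in hypoxia, beside 2.08%. The 5FU count became 1 without replicate 1 of shControl or shCDK19 in 5FU, and the low glucose count became 0 without any 1 of 7 arrays (shControl normal growth replicate 1, shCDK19 normal growth replicates 2 and 3, shControl low glucose replicates 1 and 3, shCDK19 low glucose replicates 1 and 2). The hypoxia count became 3 without shControl hypoxia replicate 2 or shCDK19 hypoxia replicate 1, and 0 without shCDK19 hypoxia replicate 2. The scaling moved the split of all genes called. In 5FU 54.6% of the shCDK19 differences were higher, 43.2% with array medians subtracted and 51.9% after quantile normalization. In hypoxia 73.1% of the shCDK19 differences were higher, 84.8% with array medians subtracted and 51.7% after quantile normalization.

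The wider set of G1/S regulators gave context from a list of 38 further genes, of which 37 were measured. It holds RB-family proteins, other E2F factors, kinase inhibitors, the SCF ubiquitin ligase with its F-box proteins, and replication licensing factors. In 5FU 8 rose and 2 fell, beside 7.17% and 4.29% of all genes, with a median change of 0.05 against -0.02 over all genes. The largest was CDKN1A (p21), an inhibitor induced by p53, which rose by 1.43 ± 0.06 (adjusted p = 0.00151). FBXW7, the F-box protein that directs cyclin E to degradation, rose by 0.99 ± 0.10 (adjusted p = 0.00583), E2F7, a repressor of E2F targets, rose by 0.83, and the RB relative RBL2 fell by 1.02. In low glucose 5 rose and 13 fell, beside 13.9% and 17.3% (median -0.08 against 0.02). The inhibitor CDKN2B (p15) rose by 1.08 and CDKN1A by 0.71. SKP2, the F-box protein that directs CDKN1B to degradation, fell by 0.92 ± 0.05 (adjusted p = 1.03e-06), and CDC25A, the phosphatase that activates CDK2, fell by 0.73.

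In shControl hypoxia 20 of the 37 were lower and 4 higher than in normal growth, beside 26.7% and 21.1% of all genes, with a median of -0.30 against 0.06 over all genes. RBL1, another RB relative, fell by 1.34, CDC25A by 1.18 and the licensing factor CDC6 by 0.77. The standard deviation of RBL1 in shControl was 0.57 in hypoxia and 0.06 in normal growth. For these further genes no value was computed with either shControl hypoxia array left out. In shCDK19 hypoxia 13 fell and 5 rose, beside 20.2% and 11.1%, with RBL1 at -1.44, CDC25A at -1.21 and SKP2 at -0.88. In shCDK8 hypoxia 5 fell and 0 rose, beside 5.57% and 3.52%, and the largest, CDC25A, fell by 0.39. In normal growth 12 of the 37 were lower and 2 higher in shCDK8 than in shControl, beside 13.5% and 11.4% (median -0.16 against -0.02). TFDP2, a dimer partner of E2F factors, fell by 1.15 ± 0.12 (adjusted p = 0.000454), RBL1 by 0.88 and E2F8 by 0.86, and FBXW7 rose by 0.87. In shCDK19 2 were lower and 0 higher, beside 3.40% and 3.67%: TFDP2 fell by 0.84 and E2F8 by 0.35.

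**Figure D5:**
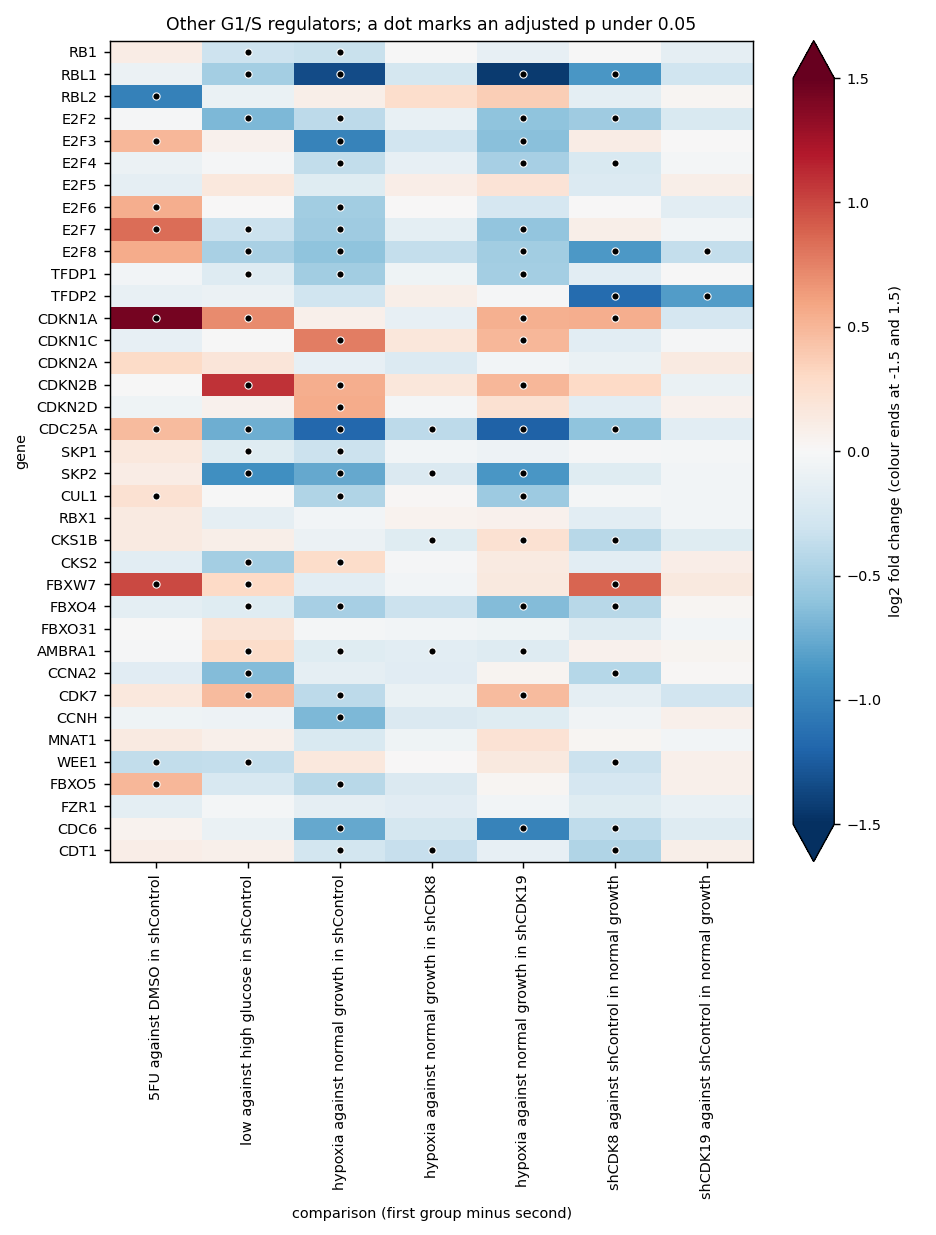
Log2 fold change (colour, scale ending at -1.5 and 1.5) of the 37 other G1/S regulators (rows) in 7 comparisons (columns), with a dot where the adjusted p was under 0.05. Hypoxia in shControl carries 24 dots, 20 of them on lower genes, and hypoxia in shCDK8 carries 5.

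Within each stress the knockdown lines were compared over the same 37 genes. In low glucose shCDK8 gave 3 higher and 8 lower, beside 12.1% and 10.2% of all genes, with E2F8 at -0.62 and E2F7 at 0.47. In shCDK19 7 were higher and 4 lower, beside 9.11% and 10.8%, with the licensing factors CDT1 and CDC6 higher by 0.56 and 0.41 and TFDP2 at -0.71. In 5FU shCDK8 gave 1 higher (FBXW7, 0.60) and 1 lower (TFDP2, -1.05), beside 1.59% and 1.91%. The shCDK19 line gave CDKN1A higher by 0.57, beside 0.576%, and 0 lower, beside 0.261%. In hypoxia shCDK8 gave 2 higher (E2F3, 0.82, and E2F7, 0.48) and 4 lower, beside 4.81% and 2.49%, with TFDP2 at -0.77 and CKS1B at -0.50. For shCDK19 limma called 0 of 37, beside 0.196% of all genes above and 0.0326% below shControl, against 7 at an unadjusted p under 0.05.

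The 10 genes can also be described by how their 14 group means varied together. No test was made, since groups of 1 experiment or of 1 line are not independent of each other. CCND3 went with CCNE1 (Pearson's r = 0.958) and with CCNE2 (r = 0.937), CCNE2 with CDK2 (r = 0.896) and CCNE1 with CCNE2 (r = 0.86). CDKN1B ran against E2F1 (r = -0.678), CCND3 (r = -0.668) and CCNE2 (r = -0.654). Among 9201 candidate genes, those most like CCNE2 over the 14 groups were FAM111B (r = 0.983), DDX24 (r = 0.974) and TEX30 (r = 0.971). Most like CCNE1 were DNTTIP2 (r = 0.975), TRMT10C (r = 0.969) and UFD1 (r = 0.968). E2F1 was most like CHAF1A (r = 0.923), MCM3 (r = 0.91) and TARDBP (r = 0.888), and CCND1 most like CANX (r = 0.862), SMAD2 (r = 0.822) and TBC1D2 (r = 0.803).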

How the data were processed

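Total RNA of HCT116 lines was hybridised to 35 Affymetrix arrays. The deposited log2 values were made with Partek, per the submitters' processing notes; no version, background correction or normalization method was stated there. The deposited values, before the logarithm, lie between 20 and 20000, and none of the 10 genes reached either limit. Of 32321 rows, 19158 carried 1 gene symbol, and each of the resulting 18404 genes was read from its row of highest average signal. The number of arrays limits the precision.

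From these values, log2 differences were computed with limma 3.58.1 (R 4.3.3): 1 mean per group within each experiment, moderated two-sided test, Benjamini-Hochberg adjustment over all genes, threshold 0.05. Hypoxia against normal growth, and differences between responses, came from 1 fit of all 35 arrays, in which each gene has 1 spread for all groups. The procedure was tested on simulated data. Alternatives were array medians subtracted, quantile normalization, genes under the 25th percentile left out, the mean of a gene's rows, an unmoderated linear model (per the design text, the authors ran an analysis of variance), the replicate number as a block, other arrays in the fit, and each array left out. Named besides the 10 genes were the hairpin targets, up to 4 called genes of the wider G1/S list per comparison with the largest change, and for each of CCNE1, CCNE2, CCND1 and E2F1 the 3 genes with the highest correlation over groups. The genes and lists were chosen with earlier results of these data known.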

Additional observations from a re-analysis of the deposited data

Results flagged for a closer look

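For 17 values the effect of a knockdown differed between a stress and normal growth by limma's test of the difference itself, adjusted over all genes. All share the normal growth arrays, and stress and experiment cannot be told apart in them.

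For shCDK8 in hypoxia the effect was more positive than in normal growth at 7 genes: CCNE2 by 1.32 (adjusted p = 0.000903), CCNE1 by 1.08 (adjusted p = 5.16e-05), CDK6 by 0.53 (adjusted p = 0.0429), E2F1 by 0.45 (adjusted p = 0.0266), CDK2 by 0.43 (adjusted p = 0.0147), CCND3 by 0.43 (adjusted p = 0.00851) and CDK4 by 0.28 (adjusted p = 0.0145). Of these, CDK6, CDK2, CDK4 and E2F1 lost the threshold when single arrays were left out. CCND3 (0.30, adjusted p = 0.115), CDK4 and E2F1 lost it after quantile normalization. CDK6 also lost it with array medians subtracted and in the unmoderated linear model. In low glucose CCNE1 differed by 0.62 (adjusted p = 0.0022), CDK2 by 0.46 (adjusted p = 0.0025) and CDK4 by 0.27 (adjusted p = 0.00571; 0.0679 with array medians subtracted). In 5FU CCND1 differed by -0.40 (adjusted p = 0.000483), CDK4 by 0.37 (adjusted p = 0.000854) and E2F1 by 0.53 (adjusted p = 0.00694).

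For shCDK19, CDK6 differed by 1.07 in 5FU (adjusted p = 0.000217) and by 0.85 in hypoxia (adjusted p = 0.00804). CDK4 differed by -0.31 in 5FU (adjusted p = 0.0141) and E2F1 by 0.50 in low glucose (adjusted p = 0.022). The CDK4 difference was lost without replicate 1 of shControl or shCDK19 in 5FU and with array medians subtracted. The CDK6 difference in hypoxia was lost without shControl hypoxia replicate 1 or shCDK19 hypoxia replicate 2 (adjusted p up to 0.1 over the settings that lost it), and the E2F1 difference without any 1 of 7 arrays and under both rescalings.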

How the results depend on the processing

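Of 66 calls of the 10 genes in 18 comparisons, 42 were kept in every alternative run and 24 were lost in at least 1, and 0 reversed direction. The responses of CCNE2 to 5FU (1.40 to 1.47 with 1 array left out) and to low glucose (-1.51 to -1.40) kept their calls throughout, as did the CDK6 rise of shCDK8 in normal growth and low glucose.

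Counts of called members moved as follows, and the cause was not tested. For shCDK19 against shControl in normal growth, 1 became 3 after quantile normalization and with all arrays in 1 fit, 2 with dim genes left out and 0 with the replicate block. For shCDK8 against shCDK19 in normal growth, 5 became 3 with medians subtracted and with the block. In 5FU the all-array fit gave 2 in each of the 3 comparisons of lines (1, 1 and 0 otherwise), and for shCDK19 against shControl the unmoderated model and the block gave 0. For shCDK19 against shControl in low glucose, 5 became 3 with medians subtracted and 2 in the all-array fit. In hypoxia, shCDK8 against shControl went from 3 to 0 in the unmoderated model, 1 with the block and 6 in the all-array fit, shCDK19 against shControl from 0 to 4 in the all-array fit, and shCDK8 against shCDK19 from 5 to 0 in the unmoderated model and 1 with the block. Hypoxia against normal growth in shCDK8 went from 1 to 0 with medians subtracted, with dim genes left out and with only the normal growth and hypoxia arrays in the fit.

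With each array left out, counts ran from 0 to 1 for shCDK19 against shControl in normal growth, 3 to 5 for shCDK8 against shCDK19 there, 2 to 6 for 5FU against DMSO, and 0 to 1 for shCDK8 and 0 to 0 for shCDK19 against shControl in 5FU. They ran from 0 to 6 for shCDK8 and 0 to 1 for shCDK19 against shControl in hypoxia, 0 to 0 for shCDK8 against shCDK19 there, and 0 to 1 for hypoxia against normal growth in shCDK8. For the differences from normal growth they ran from 4 to 7 (hypoxia) and 3 to 4 (5FU and low glucose) for shCDK8, and from 1 to 2 (5FU), 0 to 1 (low glucose) and 0 to 3 (hypoxia) for shCDK19. Where this left 1 array in a group, that array was assumed to vary like the others.

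Counts over all genes moved most with 2 arrays a group. For shCDK8 against shControl in hypoxia, 1343 became 334 in the unmoderated model, 312 with the block and 6392 in the all-array fit, and 2 to 8548 with 1 array left out. For shCDK8 against shCDK19 there, 2273 became 765, 764 and 5925, and 0 to 6 with 1 array left out. For shCDK19 against shControl there, 42 became 122 with medians subtracted, 112 with dim genes left out, 3, 1 and 2641, and 0 to 4320 with 1 array left out. In 5FU, shCDK8 against shControl gave 645, then 238, 355 and 1713, shCDK8 against shCDK19 gave 946, then 287, 479 and 2221, and shCDK19 against shControl gave 154, then 20, 53 and 1067, with 271 after quantile normalization and 387 with dim genes left out. For 5FU against DMSO, 2109 became 849 in the unmoderated model and 3526 in the all-array fit, and 225 to 2987 with 1 array left out. In normal growth shCDK19 against shControl went from 1301 to 781 with medians subtracted and also 781 with the block. Hypoxia against normal growth in shCDK8 went from 1674 to 856 with medians subtracted and 916 with those 2 experiments alone. With medians subtracted, the shCDK19 differences from normal growth went from 736 to 354 in 5FU, 329 to 146 in low glucose and 383 to 112 in hypoxia. Other counts over all genes that moved by over 1.5 times with 1 array left out ran from 88 to 158 (shCDK8 against shControl), 5 to 9 (shCDK19 against shControl) and 40 to 158 (shCDK8 against shCDK19) in 5FU. In normal growth they ran from 662 to 814 (shCDK19 against shControl) and 3587 to 7349 (shCDK8 against shCDK19). They ran from 4549 to 12096 (shControl) and 714 to 2372 (shCDK8) for hypoxia against normal growth, and for the differences in hypoxia from 1092 to 6947 (shCDK8) and 80 to 4567 (shCDK19). The shCDK19 difference in 5FU ran from 445 to 619.

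The labels give no pairing of replicate numbers. The deviations of same-numbered arrays correlated at -0.62 to 0.41, in no comparison with 3 pairs did every pair exceed 0.1, and in none of those did every array correlate best with its own number, so the block was kept as an alternative only.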
